A study of Mus musculus with 384 samples.

Results

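The samples described here are the 64 libraries labelled CER, dCA3 or vCA3 in which the mRNA for Ociad2, a protein with an OCIA domain that is found on endosomes and mitochondria, had a normalised value above 1200. They were selected on that value alone, from 96 samples with these region labels and 380 samples with values in the whole series. In the study's methods CER stands for the cerebellum and dCA3 and vCA3 for the dorsal and ventral CA3 fields of the hippocampus. All samples came from male Balb/c mice, which the labels give as postnatal day 9 whereas the study's methods describe adult males. The series used targeted RNA sequencing, in which short amplicons of 69 chosen transcripts, mostly mouse counterparts of human genes whose response to glucocorticoids varies with genotype, were counted in 12 brain regions of 32 mice. The labels name a status, MS or Co, and an injection state, inject or naive, which gave 4 label groups of 8 mice each. Neither the labels nor the methods at hand say what these words stand for or how the label groups relate to the rearing and adult stress conditions described in the study, so the words are used here only as names. No further treatment or allele is given for any group.

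Ociad2 (chromosome 5, 73322199 to 73341028, minus strand, GRCm38) separated the 96 samples into 2 classes with nothing in between. Among the 64 selected samples it ran from 1750 to 3780 with a median of 2541, and among the other 32 from 392 to 843 with a median of 659, so the sample just inside the threshold was at 1750 and the one just outside at 843. These values chose the samples and are a description only. No label gave the class, since 24 of 32 CER samples, 24 of 32 dCA3 samples and 16 of 32 vCA3 samples were Ociad2-high. Each label group contributed 6 CER, 6 dCA3 and 4 vCA3 samples, which makes 16 per label group. The median of Ociad2 within the selected samples was 2478 in Co naive, 2483 in Co inject, 2516 in MS naive and 2644 in MS inject, and the ranges of the 4 groups overlapped.

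**Figure D1:**
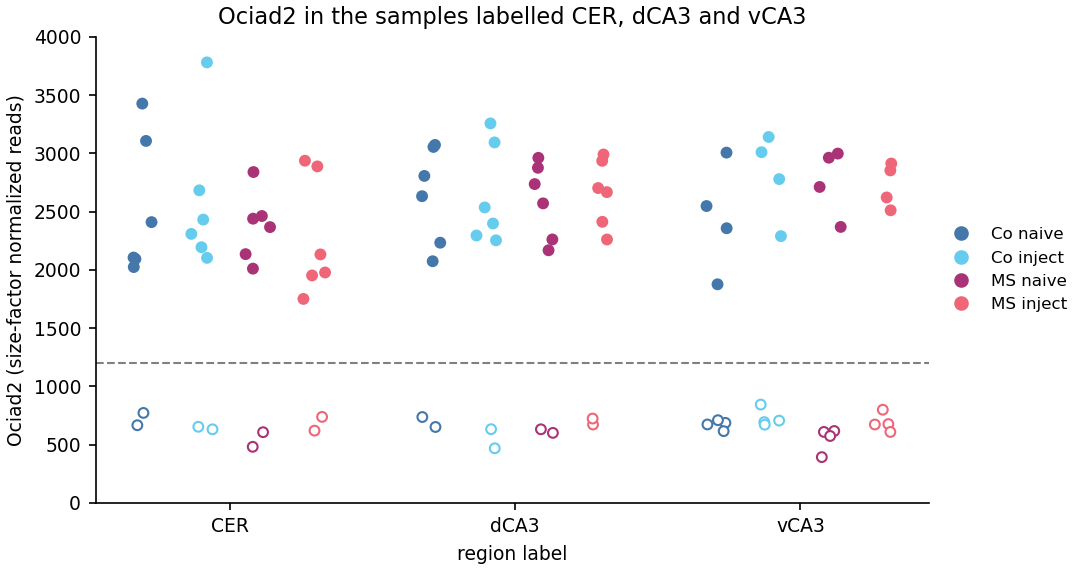
Ociad2 in the 96 samples labelled CER, dCA3 and vCA3, in normalised reads on a linear axis from 0, with colours for the label groups, filled points for the 64 selected samples and open points for the other 32. The dashed line is the threshold of 1200, and no sample lies between 843 and 1750.

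Glucocorticoids, the hormones of the stress response, act through the glucocorticoid receptor, a transcription factor that the chaperone Hsp90 holds in the cytoplasm until hormone binds. Fkbp5 encodes a co-chaperone that lowers the affinity of the receptor for hormone and is itself induced by the receptor, which closes a short feedback loop. The hippocampus expresses the receptor and takes part in ending the hormone response, and the cerebellum expresses it as well. The panel holds the receptor gene Nr3c1, the chaperone Hsp90aa1, Fkbp5 and a broad set of genes for ribosomes, protein turnover, metabolism and signalling, but no gene that defines the cerebellum or CA3, so the region labels could not be checked against such markers. Because samples with the same region label fell into both Ociad2 classes, the match between a sample's region label and its tissue was not tested. The match between mouse numbers and libraries was not tested either, and since status and injection go with the mouse number, each MS and Co or inject and naive value below rests on it.

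The 64 samples came from 31 of the 32 mice, since mouse 233 of the Co inject group had none. There were 5 mice with 1 sample, 19 with 2 and 7 with 3. Total reads per library ran from 109557 to 259606 with a median of 182324, and the medians of the label groups lay between 173872 and 194177. The median was 181416 for CER, 191499 for dCA3 and 154279 for vCA3. The correlation between libraries, across assays on the log2 scale, had a median of 0.954 over 40 pairs from the same mouse. It was 0.953 over 440 pairs from other mice of the label group and 0.953 over 1536 pairs from other label groups. Pairs from the same mouse always differed in region label, while the other pairs included some of the same label. Likeness within a mouse was therefore not tested on equal terms. Assays are not independent replicates, and these coefficients describe the libraries only. The correlation of samples within a mouse, estimated over all assays for use as a block, was 7.9e-05. Gene by gene it ran from -0.49 for Rbm4 to 0.52 for Rps2, with a median of 0.0034. The value used for all genes was so near 0 that the fits took the samples of a mouse as nearly independent. No pair of libraries was identical. The samples are tissue punches in which fewer cells of a type and less RNA per cell cannot be told apart.

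The panel spanned a wide range of levels. Fth1, the heavy chain of the iron store ferritin, had the highest median, 34267, followed by the ribosomal protein gene Rps12 at 18189 and by Hsp90aa1 at 13249.6. At the other end were Lcn2 with a median of 1.13 and Nuak2 and Tnf, both with a median of 0. These levels are not corrected for how well each amplicon is primed and do not rank the transcripts themselves. The spread between samples that the labels left unexplained was smallest for Atp5f1, a subunit of ATP synthase, with a residual SD of 0.12 on the log2(value + 1) scale, and for Tm2d1 with 0.13. It was largest for Lcn2 with 2.33, for the amino acid transporter Slc7a7 with 1.52 and for the cell-cycle inhibitor Cdkn1a with 1.38. Of the 69 assays, 65 reached 2000 reads over the series and were tested, and with Ociad2 set aside 64 remained.

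Among the samples that share a high Ociad2 level, the vCA3 label stood apart from the other labels. Of 64 genes, 21 (32.8%) passed an adjusted p of 0.1 between vCA3 and CER, 11 higher and 10 lower in vCA3, and 26 (40.6%) passed between vCA3 and dCA3, 16 higher and 10 lower (limma on log2(value + 1) with the label group as a term and the mouse as a block, Benjamini-Hochberg). Between dCA3 and CER no gene passed (0%), with 1 gene at an unadjusted p under 0.05 in limma. Both vCA3 comparisons use the same vCA3 samples, and 17 genes were called in both, 81% of the first list and 65.4% of the second. This comparison of region labels was added after the values had been seen, and it was fitted over samples of the same mice. In the study's methods a library plate held a few brain regions with their places randomised, and since the labels name no plate, a difference between plates cannot be told apart from one between region labels that lay on different plates.

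Fth1 rose in vCA3. Its value ran from 26306 through a median of 57188 to 99820 in the 16 vCA3 samples, from 16938 through 28972 to 69887 in the 24 CER samples, and from 16074 through 30245 to 95114 in the 24 dCA3 samples. The groups overlapped, but 15 of 16 vCA3 samples lay above the median of the other 48. The difference was 0.77 ± 0.18 (SE) on the log2 scale against CER (adjusted p = 0.00115, limma, Benjamini-Hochberg) and 0.76 ± 0.18 against dCA3 (adjusted p = 0.00194, limma, Benjamini-Hochberg). With all libraries rescaled to the same total it was 0.47 and 0.49. A single amplicon thus took a large part of each library: the median share of reads on Fth1 was 39.8% in vCA3, 25.3% in CER and 26.2% in dCA3, with a range of 16.4% to 50.1% over all 64 samples. The scaling of a library bears on every other gene, so the region calls were also made with all libraries rescaled to the same total.

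That rescaling moved the median difference of the 64 genes from 0.06 to -0.23 between vCA3 and CER and from 0.08 to -0.19 between vCA3 and dCA3. The split of calls moved with it, to 2 higher and 23 lower against CER and to 5 higher and 23 lower against dCA3. Since it moved the estimates down, rescaling put the higher calls at risk but hardly the lower ones. It is thus no check on the fallen genes. The calls named here as risen or fallen held under both scalings. Against CER these were Fth1 and Hsp90aa1 among the higher genes and 10 among the lower, namely Tmem176a, Rps25, Rps12, Commd1, Rfx5, Stambpl1, Peli1, Ctnnb1, Dpm2 and Tm2d1. Against dCA3 they were Fth1, Hsp90aa1, Psmb3, Rps2 and Abhd5 among the higher and Tmem176a, Rps12, Rps25, Commd1, Peli1, Stambpl1, Ctnnb1, Akt1, Cul2 and Impdh2 among the lower. On rescaling, 9 calls against CER and 11 against dCA3 were lost, all of them higher in vCA3, and 13 were gained in each comparison, all of them lower. The 9 lost against CER were the arginine methyltransferase gene Prmt5 (0.36), the transporter gene Slco3a1 (0.46), Psmb3 (0.48), Mknk2 (0.40), Abcf1 (0.50), Mrpl54 (0.33), Fam117b (0.34), the chaperonin subunit gene Cct7 (0.31) and St6galnac4, whose difference of 0.23 turned to -0.05. The 11 lost against dCA3 were Abcf1, Cct7, Fam117b, Hmgxb3, Mknk2, Mob3a, Mrpl54, Pds5a, Prmt5, Slc6a15 and Slco3a1, and the difference of 0.24 for Hmgxb3 turned to -0.02. For Mob3a it stayed nearly as large, at 0.95 before and 0.79 after rescaling, and for the other 9 the differences lay between 0.27 and 0.46 before and between 4.8e-05 and 0.19 after.

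Hsp90aa1, the stress-inducible cytosolic Hsp90, rose in vCA3 with Fth1. It ran from 9458 through 22920.4 to 29617 in vCA3, from 7571 through 12573 to 23731 in CER and from 7783 through 13019.8 to 30343 in dCA3. The ranges overlapped, and 12 of 16 vCA3 samples lay above the median of the others. The difference was 0.58 ± 0.16 on the log2 scale against CER (adjusted p = 0.00537, limma, Benjamini-Hochberg) and 0.51 ± 0.16 against dCA3 (adjusted p = 0.0134, limma, Benjamini-Hochberg). Rescaled to equal totals it was smaller, 0.28 (adjusted p = 0.0332, limma, Benjamini-Hochberg) and 0.24 (adjusted p = 0.0747, limma, Benjamini-Hochberg). Of the 4 measured genes of the receptor and chaperone list, Hsp90aa1 and Cct7 were called higher in both vCA3 comparisons, Cct7 only without rescaling, and the receptor Nr3c1 and Fkbp5 in neither. That is 2 of 4 genes, beside 32.8% and 40.6% of all 64 genes. After rescaling it is 1 of 4, beside 25 calls of 64 against CER and 28 of 64 against dCA3, of which 2 and 5 were higher.

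The largest fall in vCA3 by p was that of Tmem176a (chromosome 6, 48840919 to 48847071, plus strand), which encodes a membrane protein known from dendritic cells and other immune cells. It ran from 94.2 through 185 to 300.4 in vCA3, from 196 through 300.4 to 415 in CER and from 153 through 303 to 511 in dCA3, and 1 of 16 vCA3 samples lay above the median of the others. The fall was -0.71 ± 0.13 on the log2 scale against CER (adjusted p = 8.9e-05, limma, Benjamini-Hochberg) and -0.76 ± 0.13 against dCA3 (adjusted p = 2.18e-05, limma, Benjamini-Hochberg). Over the 8 markers of immune, vascular and other non-neuronal cells, the summed value had a median of 609 in vCA3 (369.7 to 892), 719 in CER (530.4 to 1069.6) and 749 in dCA3 (429 to 987). Tmem176a is itself a large term of this sum, and without it the other 7 markers, of which Anxa2 is the largest term, summed to medians of 400.6 in vCA3, 383 in CER and 424 in dCA3, with overlapping ranges. Gene by gene, 5 of the 6 tested markers had estimates below 0 against CER and 4 of 6 against dCA3, with medians of -0.31 and -0.42 beside 0.06 and 0.08 over all 64 genes. Tmem176a was the 1 marker called in each comparison, beside 32.8% and 40.6% of all 64 genes. On rescaling Zap70, a kinase of T-cell receptor signalling, was called lower as well, at -0.70 and -0.72, against -0.41 and -0.46 before. Of all 64 genes, 25 against CER and 28 against dCA3 were called on rescaling, 23 of them lower in each. Slc7a7 was at -0.58 and -0.66 and was called under neither scaling. The part of such cells in the vCA3 differences was not tested. Among these markers Tnf was at 0 in 50 of 64 samples, Lcn2 in 25 and Lrrc25 in 24, whereas Anxa2 and Tmem176a were above 0 in all 64.

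Of the 5 measured genes of the translation list, 2 were called higher and 2 lower against CER and 3 higher and 2 lower against dCA3, beside 32.8% and 40.6% of all 64 genes. The higher calls for Abcf1 and Mknk2 of this list were lost on rescaling, which left 0 higher and 2 lower against CER and 1 higher and 2 lower against dCA3. All 64 genes then gave 2 higher and 23 lower against CER and 5 higher and 23 lower against dCA3. Rps12 and Rps25 of the small ribosomal subunit fell in vCA3 against both other labels. Rps25 ran from 2749 through 4258 to 5277 in vCA3 and from 3358 through 5613 to 6579 in CER, and none of the 16 vCA3 samples reached the median of 5323 of the other 48. The difference was -0.36 ± 0.08 on the log2 scale against CER and -0.27 ± 0.08 against dCA3, and for Rps12 it was -0.29 ± 0.07 and -0.28 ± 0.07. Rescaled to equal totals these were larger, -0.65 and -0.53 for Rps25 and -0.59 and -0.55 for Rps12, in the direction in which the median of all genes moved. Rps2, also of the small subunit, was higher in vCA3 than in dCA3 by 1.00 ± 0.28, at medians of 49.4 and 25.5. Its median in CER was 46.3, and it was not called between vCA3 and CER.

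In the ubiquitin and proteasome list, 1 of 7 measured genes was called higher and 3 lower in each vCA3 comparison under the deposited scaling, beside 32.8% and 40.6% of all 64 genes. With totals made equal the counts were 0 higher and 5 lower against CER and 1 higher and 4 lower against dCA3. Over all 64 genes that scaling gave 25 calls against CER and 28 against dCA3, 23 of them lower in each. The 3 lower under both scalings were Peli1, an E3 ubiquitin ligase of innate immune signalling, at -0.41 against CER and -0.45 against dCA3, Commd1, a regulator of NF-kB and of copper handling, at -0.30 and -0.30, and the deubiquitinase gene Stambpl1 at -0.34 and -0.32. Psmb3, a proteasome subunit, was at 0.48 and 0.55, and of these the call against CER was lost on rescaling, at 0.19 (adjusted p = 0.20, limma, Benjamini-Hochberg). On rescaling, the differences against CER were -0.69 for Peli1, -0.60 for Commd1 and -0.63 for Stambpl1, and those against dCA3 were -0.71, -0.56 and -0.58. Ctnnb1, which encodes beta-catenin, was at -0.34 and -0.29 and, rescaled, at -0.62 and -0.55, and the transcription factor gene Rfx5 at -1.17 against CER. In the remaining lists no more than 3 genes of a list were called in 1 direction under the deposited scaling. On rescaling, the lipid and glycan list of 6 genes had 0 higher and 3 lower against CER and 1 higher and 4 lower against dCA3. Over all genes under the deposited scaling, the count of calls against CER dropped to 13 without mouse 235. Against dCA3 that count was 16 without mouse 79, 16 without mouse 103, 15 without mouse 235 and 13 without mouse 239. Library depth was also lower in vCA3, as given above, and its part was not tested.

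**Figure D2:**
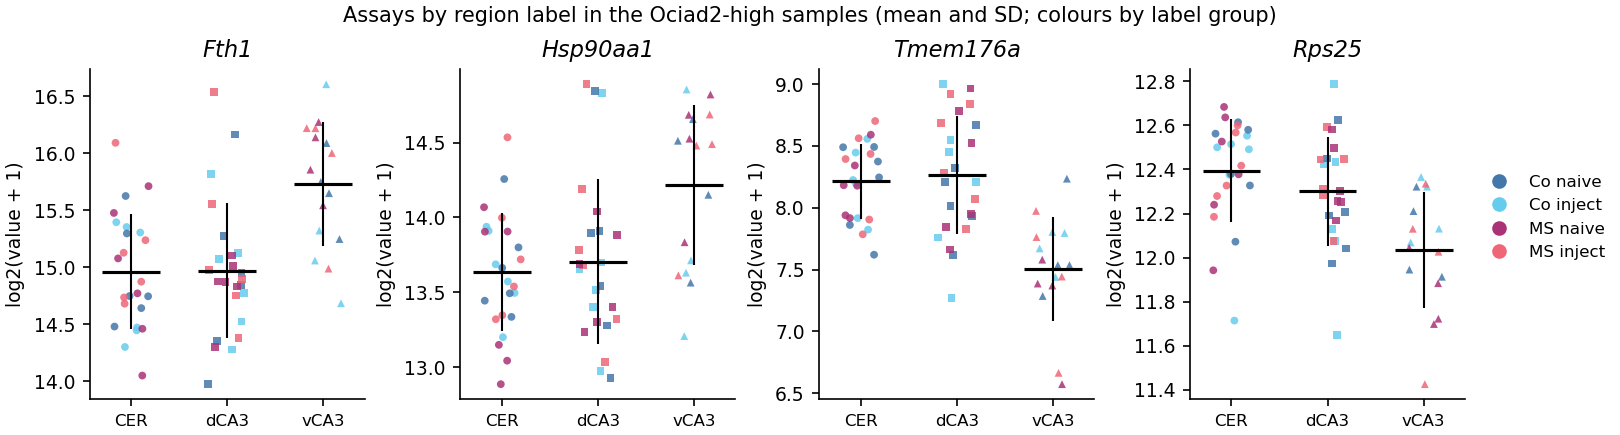
Fth1, Hsp90aa1, Tmem176a and Rps25 by region label in the 64 Ociad2-high samples, on a log2(value + 1) axis, with the mean and SD as bars and colours for the label groups. The vCA3 samples sit higher for Fth1 and Hsp90aa1 and lower for Tmem176a and Rps25, with overlap in each panel, and CER and dCA3 cover much the same range.

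Between the label groups themselves no gene was called, except in a fit with 5 principal components of the residuals as covariates, added after the values had been seen, which gave 4 calls for status, 3 for injection and 6 for the interaction. The first comparison asked which genes differed by status, MS against Co, averaged over inject and naive, with the region label as a covariate. Of 64 genes, 0 (0%) passed an adjusted p of 0.1 in limma and 3 (4.69%) had an unadjusted p under 0.05, all 3 with the higher value in MS. The smallest adjusted p was 0.833 (limma, Benjamini-Hochberg). The 64 estimates had a median of 0.01 on the log2 scale, 40 were above 0 and 24 below, and they ran from -0.30 for Zap70 to 1.18 for Lcn2. Rescaling to equal totals moved the median over all tested assays from 0.01 to -0.04.

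The gene with the smallest p for status was Abhd5 (chromosome 9, 122351608 to 122381524, plus strand), the co-activator of the lipase that breaks down stored triglyceride. Its lowest, median and highest values were 25.5, 75.5 and 174 in Co naive, 22.6, 68.4 and 222 in Co inject, 53.4, 85.0 and 159 in MS naive, and 58.4, 86.3 and 214 in MS inject. All 4 groups overlapped, while 25 of 32 MS samples lay above the Co median and no MS sample was below 53.4. The MS minus Co difference was 0.37 ± 0.15 on the log2 scale (95% interval 0.07 to 0.67, unadjusted p = 0.0172, adjusted p = 0.833, limma, Benjamini-Hochberg). It was 0.28 (unadjusted p = 0.0514, limma) without mouse 249 of Co inject, and in no other fit without 1 mouse was the unadjusted p 0.05 or more. By region label the difference was 0.16 in CER, 0.54 in dCA3 and 0.43 in vCA3.

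Tgfb1 (chromosome 7, 25687002 to 25705077, plus strand), a secreted cytokine that microglia and other non-neuronal cells use as a signal, came next. It had lowest, median and highest values of 0, 16.0 and 44.7 in Co naive, 0, 13.6 and 59.1 in Co inject, 1.76, 20.8 and 35.9 in MS naive, and 6.21, 25.4 and 71.4 in MS inject. The ranges overlapped and 26 of 32 MS samples lay above the Co median. The difference was 0.64 ± 0.29 (95% interval 0.06 to 1.23, unadjusted p = 0.0314, adjusted p = 0.833, limma, Benjamini-Hochberg). In 5 of the 31 fits without 1 mouse its unadjusted p was 0.05 or more.

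Lcn2 (chromosome 2, 32384633 to 32388252, minus strand), the iron-binding lipocalin that astrocytes and neutrophils release in inflammation, was close to its detection limit. It was at 0 in 5 samples of Co naive, 11 of Co inject, 5 of MS naive and 4 of MS inject, and its medians were 0.98, 0, 13.4 and 2.85. In 38 of 64 samples it had at most 3 reads, yet single samples reached 120.3 in Co inject and 101 in MS inject. Every group thus held both samples at 0 and samples near 80 or above. The difference of 1.18 ± 0.57 (95% interval 0.03 to 2.33, unadjusted p = 0.0437, adjusted p = 0.833, limma, Benjamini-Hochberg) depends on how zeros are treated, and 14 of the 31 fits without 1 mouse had an unadjusted p of 0.05 or more.

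The remaining genes named for status by their rank were Snrnp70, a core protein of the U1 splicing particle, at 0.18 ± 0.11, and Gart, an enzyme of purine synthesis, at -0.10 ± 0.07. Snrnp70 had medians of 141 in Co naive, 122 in Co inject, 153 in MS naive and 149 in MS inject, and Gart of 223, 218, 206 and 216 in the same order. The ranges of the 4 groups overlapped for both genes, and both estimates turned in the CER samples alone.

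**Figure D3:**
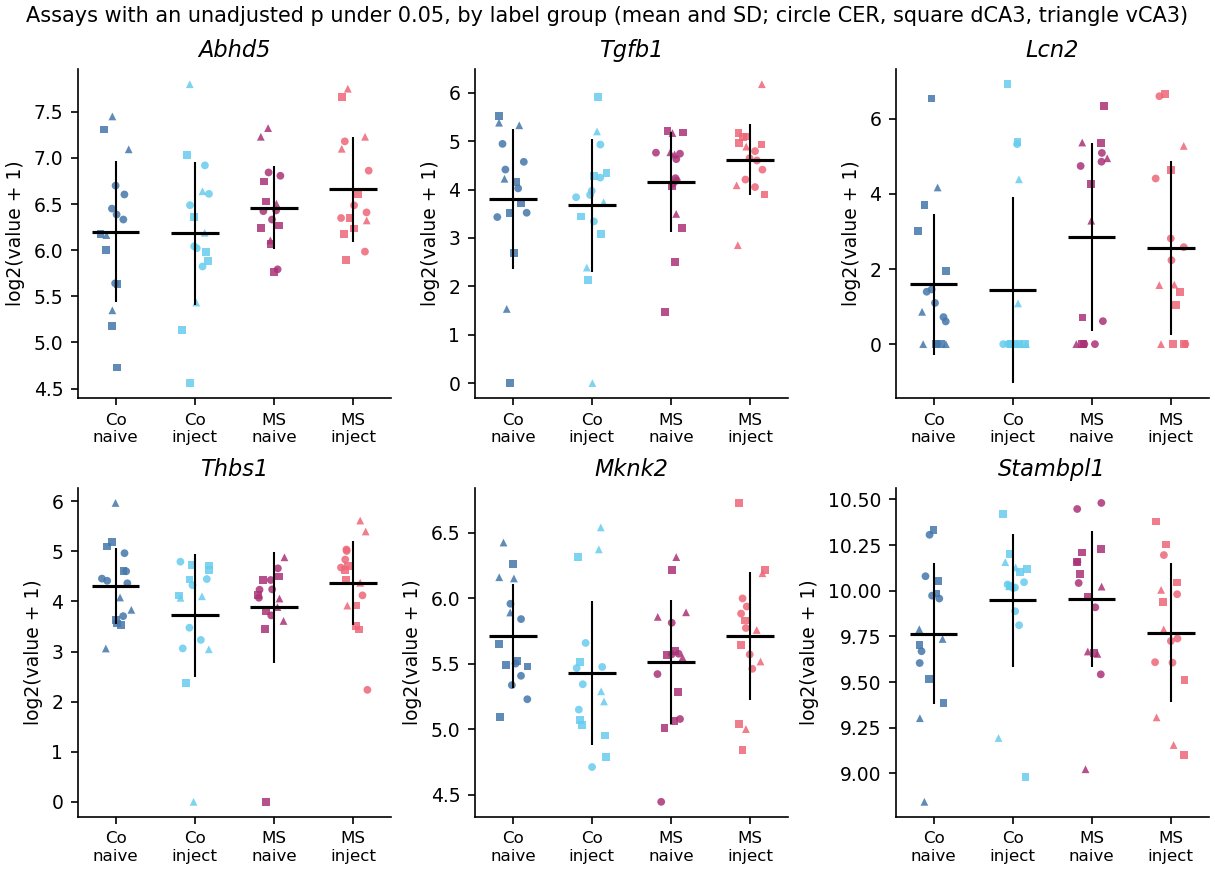
The 6 genes with an unadjusted p under 0.05, Abhd5, Tgfb1 and Lcn2 for status and Thbs1, Mknk2 and Stambpl1 for the interaction, by label group in the 64 Ociad2-high samples on a log2(value + 1) axis. Bars give the mean and SD of 16 samples, circles are CER, squares dCA3 and triangles vCA3, and the groups overlap in each panel.

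The second comparison asked which genes differed between inject and naive samples, averaged over MS and Co. It gave 0 of 64 calls (0%) and 0 genes (0%) at an unadjusted p under 0.05 in limma, with a smallest adjusted p of 0.998 (limma, Benjamini-Hochberg). The estimates had a median of 0.01 and ran from -0.44 to 0.50, with 37 above 0 and 27 below. Zfp553 at -0.44 ± 0.30 and Cdkn1a at 0.50 ± 0.34 were at the ends of that range.

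Dpm2, a subunit of the enzyme that makes dolichol-phosphate-mannose for protein glycosylation, had the smallest p. Its lowest, median and highest values were 406, 550.5 and 768 in Co naive, 336, 579 and 661 in Co inject, 451, 553 and 681 in MS naive, and 285, 511 and 627 in MS inject. The inject and naive samples overlapped over most of their range, and 15 of 32 inject samples lay above the naive median. The difference was -0.10 ± 0.06 on the log2 scale (95% interval -0.22 to 0.02, unadjusted p = 0.11, adjusted p = 0.998, limma, Benjamini-Hochberg).

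Cdkn1a, which encodes the cell-cycle inhibitor p21 and is induced by the glucocorticoid receptor in many cells, had values of 0, 20.5 and 84.9 in Co naive, 15.8, 29.4 and 81.6 in Co inject, 6.87, 31.2 and 62.6 in MS naive, and 0, 35.5 and 85.8 in MS inject. It was at 0 in 2 Co naive samples and 1 MS inject sample, and otherwise the groups covered the same range. The fitted inject minus naive difference had a 95% interval of -0.18 to 1.18. It was 0.30 without mouse 259 (unadjusted p = 0.364, limma) and 0.69 without mouse 83 (unadjusted p = 0.0326, limma), and in the other 30 of 31 such fits the unadjusted p was 0.05 or more. Zfp553, a zinc finger gene, was near the detection limit with medians of 4.47, 2.73, 3.77 and 3.48 in Co naive, Co inject, MS naive and MS inject, and was at 0 in 10 of 64 samples. The HMG-box gene Hmgxb3 was at 0.10 ± 0.07 and Nedd4l, an E3 ligase that controls ion channels, at 0.09 ± 0.07, and for both the groups overlapped.

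The receptor itself was called for neither factor. Nr3c1 had lowest, median and highest values of 183, 234 and 307 in Co naive, 149, 239 and 360.1 in Co inject, 159, 289 and 416 in MS naive, and 181, 240.2 and 450.3 in MS inject, with overlap throughout. Its difference was 0.07 ± 0.08 for status (95% interval -0.09 to 0.23) and -0.09 ± 0.08 for injection (95% interval -0.25 to 0.06). The status difference was 0.0273 without mouse 79 and 0.0369 without mouse 109, and the injection difference was -0.06 without mouse 109. Of 32 inject samples 6 lay above the naive median and of 32 MS samples 21 above the Co median.

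Fkbp5 had medians of 88.1 in Co naive, 64.7 in Co inject, 79.4 in MS naive and 92.1 in MS inject. It ranged from 0.77 to 152 in Co naive, 24.99 to 133 in Co inject, 35.5 to 128 in MS naive and 18.4 to 130 in MS inject, so that a single Co naive sample lay far below the rest. Its difference was 0.27 ± 0.23 for status (95% interval -0.18 to 0.72) and -0.06 ± 0.23 for injection (95% interval -0.52 to 0.39). Without mouse 239 of Co naive the status difference was 0.12 (unadjusted p = 0.436, limma) and the injection difference -0.21 (unadjusted p = 0.184, limma). Hsp90aa1 ran from 7783 to 29412 in Co naive and from 8391 to 30343 in MS inject, with differences of 0.08 ± 0.12 for status and 0.01 ± 0.12 for injection, and the injection estimate turned to -0.02 when totals were made equal.

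Counted over the lists, the receptor and its chaperones had 4 of 6 listed genes measured and known receptor targets 3 of 7, with no call for status or injection and adjusted p-values no smaller than 0.833 and 0.998 (limma, Benjamini-Hochberg). The median difference for injection was -0.05 in the first list and -0.06 in the second, beside 0.01 over all 64 genes. For status the medians were 0.07 and 0.27, the latter over Cdkn1a, Fkbp5 and Lcn2, which overlap with other lists, and it is the Fkbp5 value that mouse 239 moves. Between these 3 targets the injection estimates went in both directions, from -0.22 for Lcn2 to 0.50 for Cdkn1a.

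**Figure D4:**
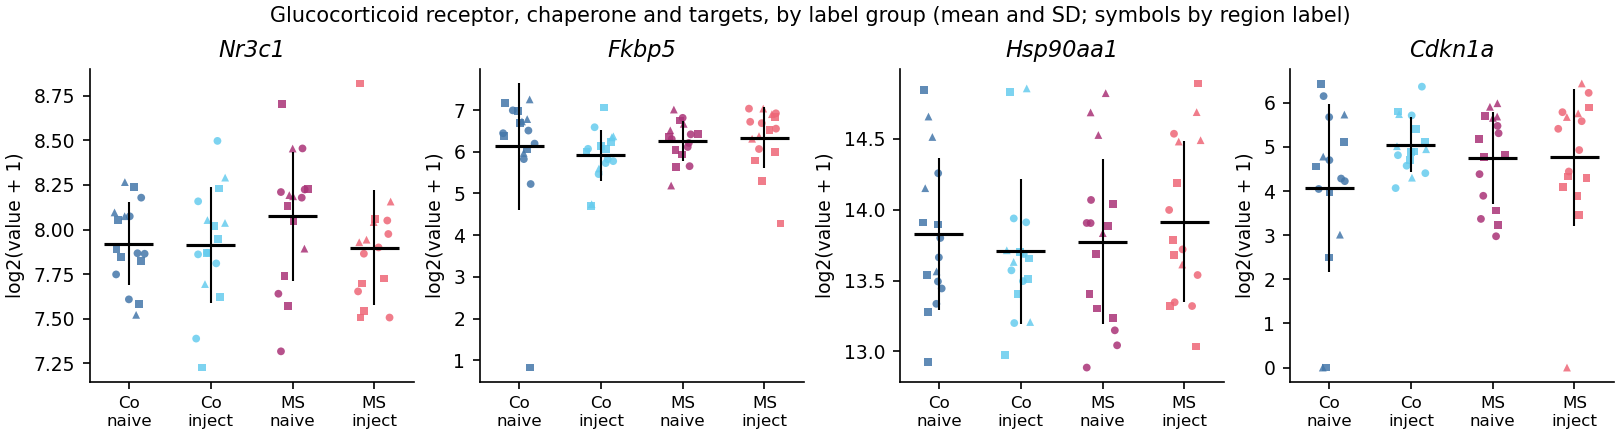
Nr3c1, Fkbp5, Hsp90aa1 and Cdkn1a by label group in the 64 Ociad2-high samples on a log2(value + 1) axis, with mean and SD as bars, circles for CER, squares for dCA3 and triangles for vCA3. The 4 groups overlap for each gene, and 3 samples at 0 stand out for Cdkn1a and 1 low Co naive sample for Fkbp5.

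The third comparison, the interaction, asked whether the inject minus naive difference was another one in MS than in Co. In limma 0 of 64 genes (0%) passed and 3 (4.69%) had an unadjusted p under 0.05, with a smallest adjusted p of 0.77 (Benjamini-Hochberg). The estimates had a median of 0.09, with 40 above 0 and 24 below, and ran from -0.96 for Cdkn1a to 1.08 for Thbs1. Rescaling to equal totals moved the median over all tested assays from 0.08 to -0.01. For Cdkn1a, inject minus naive was 0.98 in Co and 0.02 in MS (unadjusted p of the interaction = 0.163, limma).

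Thbs1 (chromosome 2, 118111876 to 118127133, plus strand), a matrix glycoprotein that astrocytes release and that promotes synapse formation, had the largest positive estimate. Its lowest, median and highest values were 7.35, 19.9 and 61.5 in Co naive, 0, 16.3 and 26.7 in Co inject, 0, 16.2 and 28.5 in MS naive, and 3.71, 22.2 and 48.0 in MS inject. The groups overlapped, and a single sample at 0 in Co inject and another in MS naive lay far below the others. Inject minus naive was 0.48 in MS and -0.59 in Co, an interaction of 1.08 ± 0.50 (95% interval 0.08 to 2.07, unadjusted p = 0.0344, adjusted p = 0.77, limma, Benjamini-Hochberg). The libraries of mouse 247 of Co inject were the shallowest of all selected samples, at 109557 and 114071 reads. Without that mouse the interaction was 0.76 (unadjusted p = 0.091, limma), and 5 of the 31 fits without 1 mouse had an unadjusted p of 0.05 or more. In the vCA3 samples alone it was 2.15, in CER 0.62 and in dCA3 0.82.

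Mknk2 (chromosome 10, 80665327 to 80678112, minus strand), a kinase that phosphorylates the translation factor eIF4E, went the same way. Its values were 33.2, 47.0 and 84.9 in Co naive, 25.2, 38.8 and 92.0 in Co inject, 20.8, 46.5 and 78.5 in MS naive, and 27.6, 53.4 and 105 in MS inject, and the groups overlapped. Inject minus naive was 0.20 in MS and -0.28 in Co, an interaction of 0.48 ± 0.23 (95% interval 0.03 to 0.93, unadjusted p = 0.0389, adjusted p = 0.77, limma, Benjamini-Hochberg). In 16 of the 31 fits without 1 mouse its unadjusted p was 0.05 or more, with 0.40 (unadjusted p = 0.069, limma) without mouse 81 as the lowest estimate. It was 0.02 in the vCA3 samples alone and 0.70 in CER.

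Stambpl1 (chromosome 19, 34192229 to 34240333, plus strand), a deubiquitinase that cuts K63-linked ubiquitin chains, had the opposite sign. Its values were 459, 868 and 1288 in Co naive, 503, 1044 and 1367 in Co inject, 519, 1046 and 1428 in MS naive, and 548, 868 and 1331 in MS inject, so the ranges nearly coincided. The interaction was -0.37 ± 0.18 (95% interval -0.72 to -0.01, unadjusted p = 0.0416, adjusted p = 0.77, limma, Benjamini-Hochberg). In 15 of the 31 fits without 1 mouse the unadjusted p was 0.05 or more, and the estimate nearest to 0 was -0.30 (unadjusted p = 0.0885, limma) without mouse 249. Cul2, the scaffold of an E3 ubiquitin ligase, was at -0.36 ± 0.18, with an interval that included 0.

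**Figure D5:**
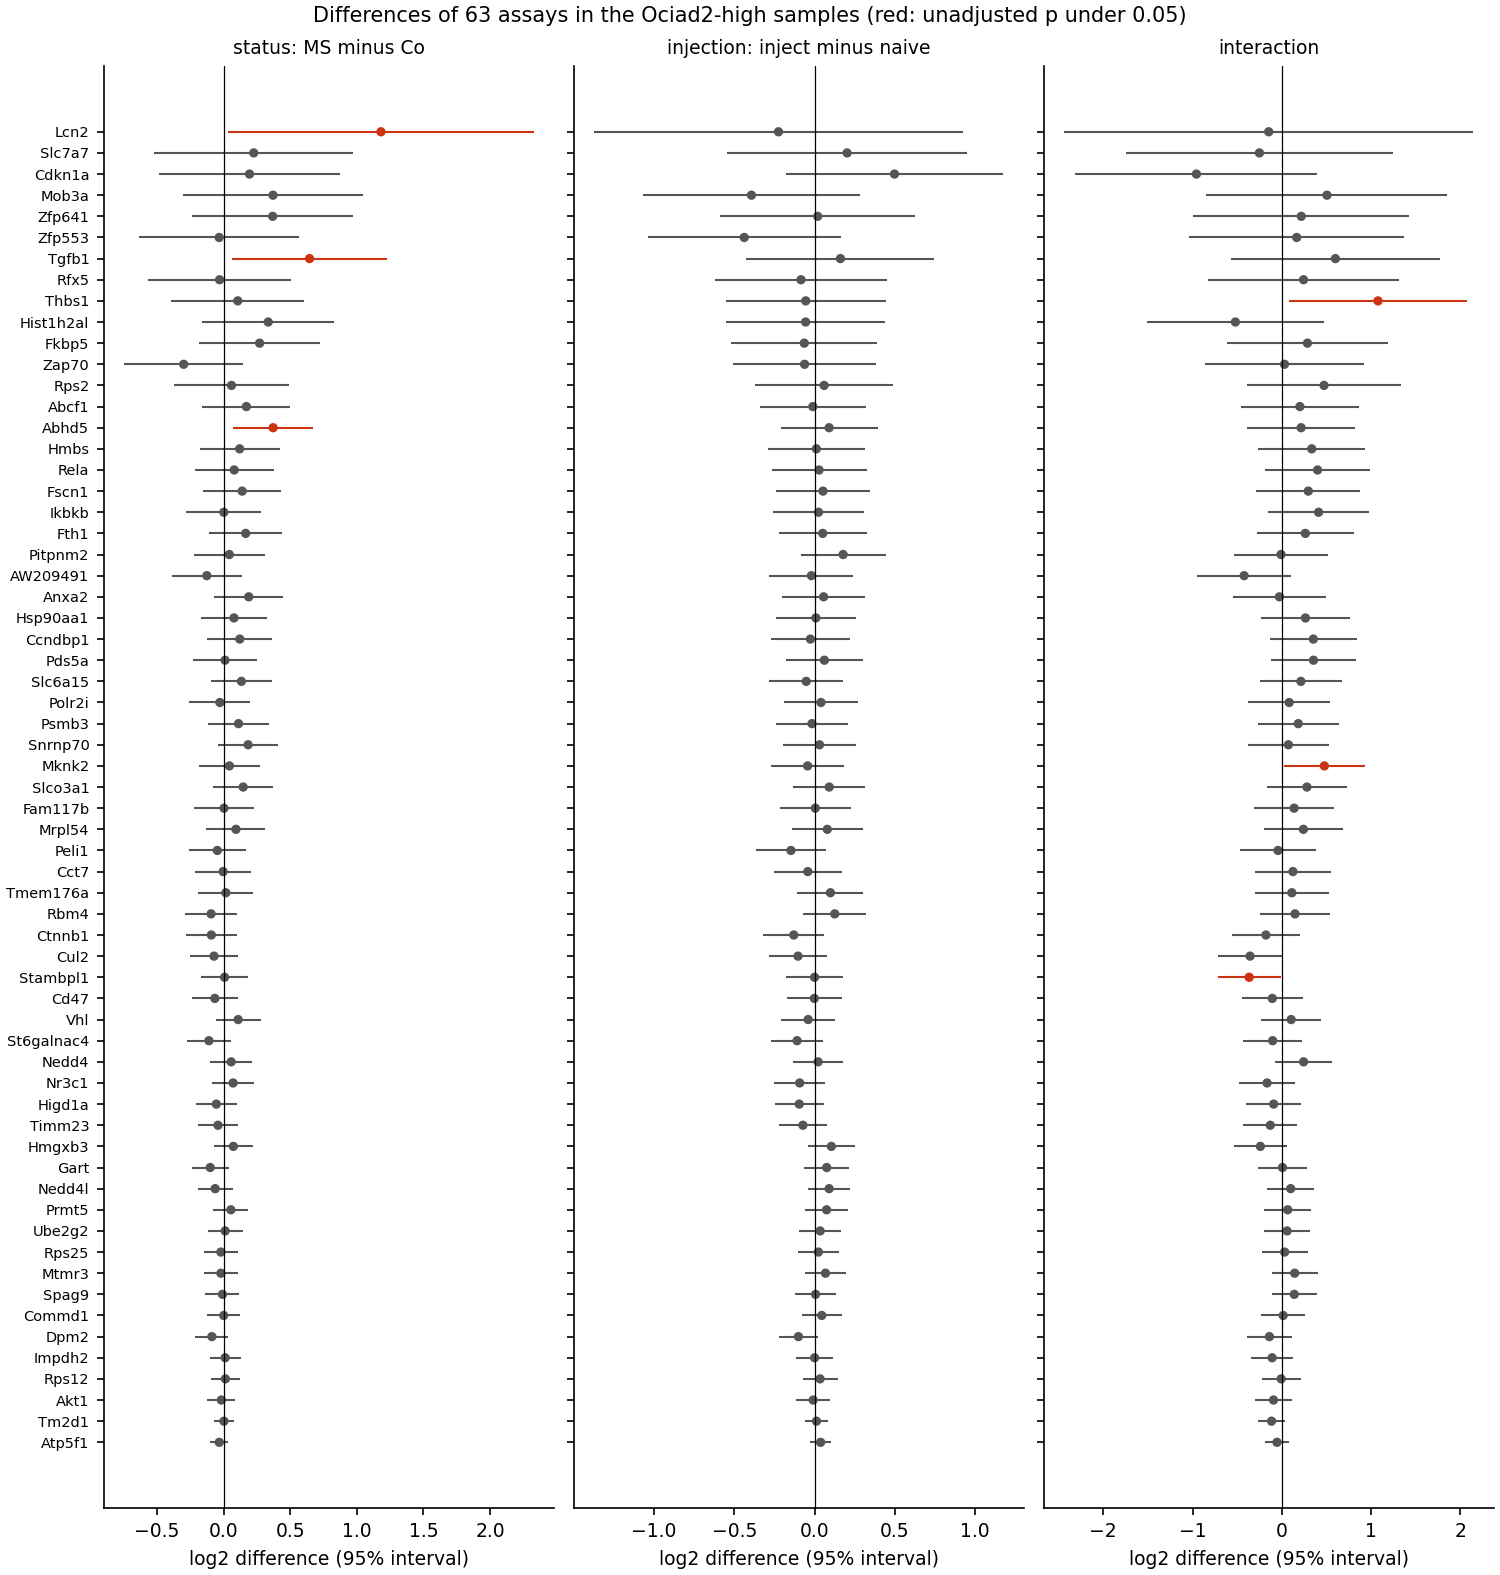
Log2 differences of the genes reported with 95% intervals (limma) for status, injection and the interaction in the 64 Ociad2-high samples, ordered by residual SD from the largest at the top. The intervals widen from Atp5f1 at the bottom to Lcn2 at the top, and red marks the 3 genes for status and the 3 for the interaction with an unadjusted p under 0.05.

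The lists fixed for the tissue showed no call in any of the 3 comparisons. The mitochondrial list, with 4 of 4 genes measured, had median differences of -0.04 for status and -0.02 for injection. The ubiquitin and proteasome list, with 7 of 12, had 0.01 and 0.02, the transcription and RNA list, with 10 of 10, had 0.03 and 0.04, and the lipid and glycan list, with 6 of 6, had -0.04 and 0.02. Translation genes, with 5 of 5, had 0.04 and 0.02, nucleotide, haem and iron genes, with 4 of 4, had 0.06 and 0.03, and signalling genes, with 6 of 7, had 0.06 and -0.02. Transporters, with 3 of 3, had 0.15 and 0.09. The markers of immune, vascular and other non-neuronal cells, with 6 of 8 tested, had 0.15 for status and 0.00085 for injection, and the summed value of all 8 had medians of 694 in Co naive, 671 in Co inject, 729 in MS naive and 742 in MS inject. Over all 64 genes the medians were 0.01 and 0.01.

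Genes that the study named from its tests in other regions were measured here as well. It named Snrnp70 for early-life stress and Higd1a, Ccndbp1, Rps12 and Rps25 for the interaction of early and adult stress. Abhd5 was named for adult stress and for the interaction, and the others for adult stress. Those tests used adult mice, and nothing at hand pairs their factors with status or injection. The values below are therefore no like-for-like check. Apart from Abhd5 and Snrnp70, given above, the status differences were 0.16 ± 0.14 for Fth1, 0.09 ± 0.11 for the mitochondrial ribosomal gene Mrpl54, 0.17 ± 0.17 for the ribosome-associated Abcf1, 0.11 ± 0.11 for Psmb3 and -0.10 ± 0.10 for the splicing regulator Rbm4. The histone gene Hist1h2al was at 0.33 ± 0.25 and AW209491 at -0.13 ± 0.13. Higd1a, a hypoxia-induced mitochondrial protein, was at -0.06 ± 0.08, the cyclin D binding protein Ccndbp1 at 0.12 ± 0.12, Rps12 at 0.01 ± 0.05 and Rps25 at -0.02 ± 0.06. For injection the same 11 genes ran from -0.10 for Higd1a to 0.13 for Rbm4, and for the interaction from -0.52 for Hist1h2al to 0.35 for Ccndbp1. None passed in any of the 3 comparisons (limma, Benjamini-Hochberg).

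The width of the intervals sets what these samples could show, with the samples of a mouse taken as nearly independent. For genes whose values went together within a mouse, such as Rps2 (0.52) and Slc7a7 (0.45), the status and injection intervals may be too narrow. The 95% interval of a status or injection difference had a median half-width of 0.22 on the log2 scale, from 0.07 for Atp5f1 to 1.15 for Lcn2, and that of an interaction had 0.45. The whole interval lay within 0.5 of 0 for 50 of 64 genes for status, 52 for injection and 21 for the interaction, and within 1 of 0 for 61, 60 and 52.

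Whether the differences by status and injection were other ones in the Ociad2-high than in the 32 Ociad2-low samples was tested directly over all 96 samples. For status 0 of 64 genes (0%) and for injection 0 (0%) passed an adjusted p of 0.1 in limma, with 2 genes at an unadjusted p under 0.05 for each. For Tgfb1 the status difference was 0.64 in the Ociad2-high and -0.34 in the Ociad2-low samples when each class was fitted alone, and the test of the difference gave 0.98 ± 0.45 (unadjusted p = 0.033, adjusted p = 0.968, limma, Benjamini-Hochberg). For Abhd5 the values were 0.37 and -0.17 and the test gave 0.46 ± 0.24 (adjusted p = 0.968, limma, Benjamini-Hochberg). In the Ociad2-low samples alone limma called 0 genes for status and 0 for injection, with 1 and 0 genes at an unadjusted p under 0.05.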

How the data were processed

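The deposited values are a signal that the authors made from targeted amplicon reads: reads with a quality under 20 or under 25 bases were removed with PRINSEQ lite 0.20.4, BWA 0.7.12 placed the rest on the assay manifest with at most 3 mismatches, and DESeq2 size factors scaled each library. The submitters' processing notes name mm10. Within a sample, each value (100% of 26220, to within 0.01) was an integer times the amount that 1 read contributes, which gave the reads per library. Amplified reads are not independent molecules. No column belonged to no sample.

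Samples were grouped by title; the labels give no plate or other batch, although the study's methods describe several brain regions per library plate. log2(value + 1) was fitted with limma 3.58.1 (R 4.3.3) over the 65 assays with at least 2000 reads, with region label, status, injection and their interaction, the mouse as a block (duplicateCorrelation), and Benjamini-Hochberg adjustment at 0.1. Fold differences are on that scale and understate changes of low genes. Intervals are 95% intervals. The limma fit for status was tested on simulated normal values with shifts above the residual SD, and the other comparisons were not. The planned count tests were not run, because a panel of 69 assays holds too few low values to check recovered reads; surrogate variables were not run either, and 5 principal components of the residuals were tried. The labels do not say whether samples of a mouse were processed independently. Genes were named by rank: those that passed, filled up to 5 for each comparison by p, with Nr3c1, the study's genes and the highest and lowest medians; the region comparison, Tmem176a and other genes of it were chosen after the values were seen. A gene that this rule named is not reported here. Members and gene lists were chosen with earlier results of these data known. Gene positions are from GENCODE M21 on GRCm38, the assembly that mm10 also names. Figures used Python 3.11.15 with matplotlib 3.10.9.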

Additional observations from a re-analysis of the deposited data

Results flagged for a closer look

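For 18 of the genes reported, Ociad2 included, the mean of log2(value + 1) per mouse was compared within each label group, as were the reads per library, and in 5 of 76 groups 1 mouse lay far from the others, where chance flags about 1 in 20 groups. Mouse 239 of Co naive was low for Fkbp5, at 4.86 against 6.07 in the next mouse, and mouse 249 of Co inject was low for Abhd5, at 4.997 against 6.03. Thbs1 was low in mouse 247 of Co inject, at 1.62 against 3.58, and in mouse 95 of MS inject, at 2.24 against 3.92. The libraries of mouse 247 were the shallowest of those selected. Mouse 81 of MS inject was low for Dpm2, at 8.16 against 8.89. Mice 81 and 95 had 1 selected sample each, labelled dCA3 and CER. Their means are thus single libraries, set beside means that mostly cover 2 or 3 region labels.

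The 4 assays that were not tested for want of reads still gave more than 3 reads in some of the 64 samples, namely Lrrc25 in 34, Nuak2 in 12, Fan1 in 36 and Tnf in 7. Nuak2 did so in 0 Co naive, 5 Co inject, 3 MS naive and 4 MS inject samples, and these numbers were not tested.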

How the results depend on the processing

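The counts of called genes for status, injection and the interaction stayed at 0 under each of the other settings that was run (pseudocounts of 0.1 and 10, no filter or a mean of at least 10, rescaled totals, an adjusted p under 0.05, mouse averages with and without region centring, no region label, each region label alone) and in each of the 31 fits without 1 mouse, where the range was 0 to 0. With no replicate block the calls were 0, 0 and 0 as well. With 5 principal components of the residuals as covariates, added after seeing the data, there were 4 calls for status, 3 for injection and 6 for the interaction; the components are drawn from the residuals of the same genes and by construction take away the spread that the test is set against. The count between dCA3 and CER was 1 (Rps2) with a pseudocount of 10. Without 1 mouse, the region counts ranged from 13 to 27 (vCA3 and CER), 0 to 1 (dCA3 and CER, with Rps2 called without mouse 79, 81 or 253) and 13 to 27 (vCA3 and dCA3). By Ociad2 class, the count of 0 held in 6 of 6 refits.

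Of 259 values of named genes, 244 kept direction and side, and 6 passed only with the 5 components, namely Abhd5, Tgfb1 and Lcn2 for status, Cdkn1a for injection, and Stambpl1 and Cul2 for the interaction. In the CER samples alone the estimate turned for Snrnp70 (status, -0.14), Gart (status, 0.0247), Zfp553 (injection, 0.0137), Hsp90aa1 (status, -0.0317) and Fkbp5 (injection, 0.0601). It turned in dCA3 alone for Nedd4l (injection, -0.0157) and Hsp90aa1 (status, -0.0014), and for Hsp90aa1 (injection) in vCA3 alone (-0.26) and with rescaled totals (-0.0178). Without 1 mouse, injection estimates ranged from -0.21 to 0.00704 for Fkbp5 and from -0.0346 to 0.0488 for Hsp90aa1, and Dpm2 was at -0.07 without mouse 235 and Zfp553 at -0.28 without mouse 237; the Hsp90aa1 status difference ran from 0.0344 (mouse 93) to 0.12 (mouse 243). The cause was not tested. The 3 edgeR settings, DESeq2 and surrogate variables were not run, and leaving out libraries under 50000 reads gave no value, as none was that shallow.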
